A study of Mus musculus with 2 samples.

Results

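The microRNA (miRNA) genes described here are those best known from microglia, leukocytes and inflamed tissue, namely Mir142, Mir146, Mir146b, Mir150, Mir155, Mir223 and Mir21a. They were chosen by gene name in the GENCODE M21 annotation, with no threshold on level but with earlier results of these data known. They make up 7 of the 2202 miRNA genes in the count tables. Small RNA was sequenced in 2 libraries of hippocampus tissue, labelled layer of hippocampus, from male mice aged 25 days. Their strain was B6CASTF1/J, a cross of C57BL/6J with CAST/EiJ, with no treatment, mutation or other group named in the labels. The libraries are biological replicates 1 and 2 with separate biosamples but a shared donor entry. Whether they came from separate animals is not stated, so p-values and SDs cover only these samples and could hold technical spread.

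A miRNA is cut from a hairpin precursor and guides the Argonaute protein to messenger RNAs that pair with its seed, the stretch from base 2 to base 8, which lowers their translation and stability. Mir142 is expressed in blood-forming lineages and the microglia derived from them, Mir223 in neutrophils and other myeloid cells, and Mir150 in mature lymphocytes, where it targets Myb. Mir155 is switched on in activated macrophages and lymphocytes. Mir146 and Mir146b are transcribed in response to inflammatory signals and, through Traf6 and Irak1, damp the signalling that induced them. Mir21a is expressed in many tissues and rises in inflamed or injured ones.

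All 7 genes matched the RefSeq miRNA table by symbol, which uses the GRCm38.p6 build, the same assembly as mm10. The following mature sequences are shown because they separate the family relatives from the single genes in this set. Letters run from the 5′ to the 3′ end, and the capitals mark the seed.

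miR-21a-5p: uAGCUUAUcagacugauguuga
miR-150-3p: cUGGUACAggccugggggauag
miR-146a-5p: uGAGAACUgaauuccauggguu
miR-146b-5p: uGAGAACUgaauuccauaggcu
miR-142a-5p: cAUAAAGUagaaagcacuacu
miR-142a-3p: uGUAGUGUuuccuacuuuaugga
miR-155-5p: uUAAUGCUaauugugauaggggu
miR-223-3p: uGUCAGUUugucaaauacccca

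Of the 13 mature sequences listed for these genes, only miR-146a-5p and miR-146b-5p share a seed with each other. For Mir150 only miR-150-3p is listed, so the seed of its other arm was not compared. Among the 1738 mature sequences of the table, miR-21c was the sole other one that carried the seed of any of these 13, in that case the seed of miR-21a-5p. The count tables hold 1 count per gene, so the 2 arms of a hairpin cannot be told apart in the values that follow.

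By counts, the 7 genes fell into 3 tiers. Whether counts of different miRNAs follow their abundance in the tissue was not tested. Mir21a, Mir150 and Mir146 stood between 572 and 1077 counts per 1000000 gene-assigned counts (CPM), Mir142 and Mir155 between 31.9 and 35.2 CPM, and Mir146b and Mir223 between 5.07 and 6.15 CPM, all as means of both libraries. All 7 had at least 10 counts in both libraries, which 445 of all 2202 miRNA genes (20.2%) had. Their median level of 35.2 CPM lay below the 51.2 CPM of the 445 detected genes, and 3 of the 7 lay above it. By counting error alone, 0 counts would allow at most 0.579 CPM in replicate 1 and 0.511 CPM in replicate 2. In bulk tissue, fewer cells of a type and less RNA per cell cannot be told apart.

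**Figure D1:**
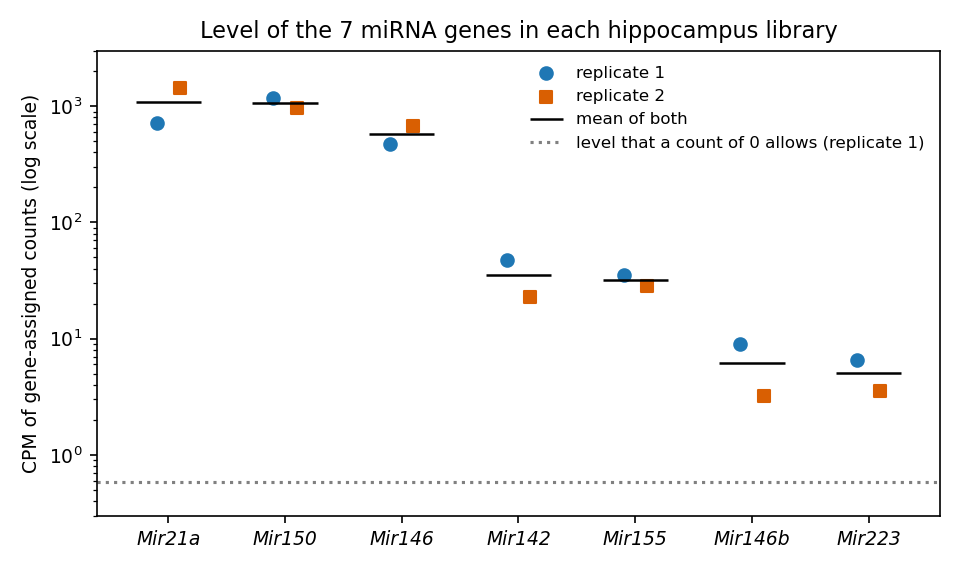
Level of each gene in CPM (log axis) in replicate 1 (circles) and replicate 2 (squares), with the mean of both as a line and the level that a count of 0 allows in replicate 1 (0.579 CPM) as a dotted line. Mir21a, Mir150 and Mir146 range from 470 to 1436 CPM over both libraries, and the other 4 genes from 3.24 to 47.6 CPM.

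Mir21a lies on chromosome 11 from 86584067 to 86584158 on the minus strand of mm10, within the untranslated part of the last exon of the protein-coding gene Vmp1. It had 3723 counts in replicate 1 and 8430 in replicate 2, or 718 CPM (exact 95% interval 695 to 742) and 1436 CPM (1405 to 1467). Mir150 lies on chromosome 7 from 45121757 to 45121821, in no annotated host gene. Its 6133 and 5673 counts gave 1183 CPM (1154 to 1213) in replicate 1 and 966 CPM (941 to 992) in replicate 2. The means were close, at 1077 ± 507 CPM for Mir21a and 1075 ± 153 CPM for Mir150 (SD, n = 2), but Mir150 was the higher in replicate 1 and Mir21a in replicate 2. Among all miRNA genes, Mir21a ranked 113 in replicate 1 and 86 in replicate 2, and Mir150 ranked 94 and 105.

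Mir146, the gene of miR-146a, lies on chromosome 11 from 43374397 to 43374461 on the minus strand, outside any annotated host. It had 2434 and 3960 counts, or 470 CPM (451 to 489) in replicate 1 and 674 CPM (654 to 696) in replicate 2. It stood below Mir150 in both libraries, 2.52-fold in replicate 1 and 1.43-fold in replicate 2. Mir150, Mir21a and Mir146 together made up 96.0% of the counts of the 7 genes in replicate 1 and 98.2% in replicate 2.

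Mir142 lies on chromosome 11 from 87756864 to 87756927, in an intron of the noncoding gene Mir142hg. Its 247 and 133 counts gave 47.6 CPM (41.9 to 54.0) in replicate 1 and 22.7 CPM (19.0 to 26.8) in replicate 2. Mir155 lies on chromosome 16 from 84714140 to 84714204, in an exon of the noncoding gene Mir155hg. It had 184 and 166 counts, or 35.5 CPM (30.6 to 41.0) in replicate 1 and 28.3 CPM (24.1 to 32.9) in replicate 2. The order of Mir142 and Mir155 differed between the libraries, with Mir142 the higher in replicate 1 and Mir155 in replicate 2, so their means of 35.2 ± 17.7 and 31.9 ± 5.11 CPM (SD, n = 2) do not place either above the other.

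Mir146b lies on chromosome 19 from 46342762 to 46342870, in an intron of the protein-coding gene Mfsd13a. It had 47 and 19 counts, or 9.07 CPM (6.66 to 12.1) in replicate 1 and 3.24 CPM (1.95 to 5.05) in replicate 2. Mir223 lies on chromosome X from 96242817 to 96242926, in an exon of the noncoding gene F630028O10Rik. It had 34 and 21 counts, or 6.56 CPM (4.54 to 9.17) in replicate 1 and 3.58 CPM (2.21 to 5.47) in replicate 2. The intervals of Mir146b and Mir223 overlapped within each library, and their order differed between the libraries.

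Of the 6 pairs of neighbours in the order of means, 3 kept their order in both libraries. These were Mir150 over Mir146, Mir146 over Mir142 and Mir155 over Mir146b. The widest gap was that between Mir146 and Mir142, 9.85-fold in replicate 1 and 29.8-fold in replicate 2. Mir150 exceeded Mir142 by 24.8-fold in replicate 1 and 42.7-fold in replicate 2, and exceeded Mir223 by 180-fold and 270-fold. Mir142 exceeded Mir223 by 7.26-fold and 6.33-fold. Which cell types gave these counts was not tested.

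Summed over the 7 genes, the counts were 12802 in replicate 1 and 18402 in replicate 2. These were 0.247% (exact 95% interval 0.243 to 0.251) and 0.313% (0.309 to 0.318) of gene-assigned counts, or 0.280% ± 0.0470 (SD, n = 2). Without Mir21a, the other 6 genes summed to 1751 CPM in replicate 1 and 1698 CPM in replicate 2. Mir21a made up 29.1% of the counts of the set in replicate 1 and 45.8% in replicate 2, and Mir150 made up 47.9% and 30.8%.

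**Figure D2:**
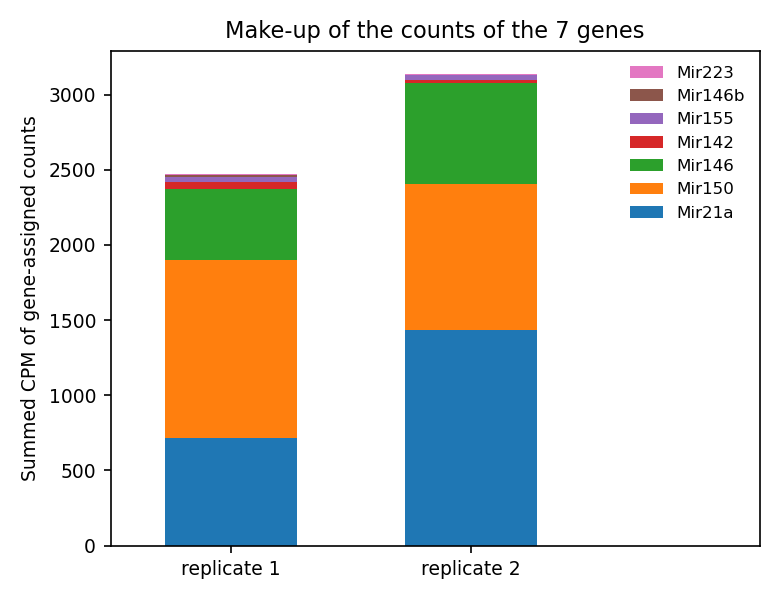
Summed level in CPM of the 7 genes in each library, stacked by gene. The bar of replicate 2 reaches 3134 CPM and that of replicate 1 reaches 2470 CPM, with a larger Mir21a part in replicate 2 and nearly equal sums of the other 6 genes.

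The relatives within the set were very unequal. The Mir146 and Mir146b products carry the seed GAGAACU and match at 20 of 22 bases, differing as G18A and U21C, where the first letter is the base of miR-146a-5p, positions count from 1 at the 5′ end and the last letter is the base of miR-146b-5p. Their first 17 bases are identical, and the precursors share a stretch of 21 bases. Mir146b made up 1.89% of the 2481 counts of the pair in replicate 1 (exact 95% interval 1.40 to 2.51) and 0.478% of 3979 counts in replicate 2 (0.288 to 0.745). The tables hold reads aligned to several places apart from the gene counts. Reads that fit both genes are therefore absent from these values, and their number is not given per gene, so the levels of both genes are uncertain.

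Mir21b and Mir21c, the relatives of Mir21a, had no counts in either library. Their mature sequences, shown against that of miR-21a-5p above, differ from it at more places than the miR-146 pair does.

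miR-21b: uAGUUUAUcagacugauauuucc
miR-21c: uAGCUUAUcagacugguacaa

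Over the 22 bases that can be set side by side, miR-21b differs from miR-21a-5p at 4, one of them, C4U, inside the seed. Over 21 bases miR-21c differs at 5, all outside the seed. The longest stretch that the Mir21a precursor shares with another miRNA gene was 15 bases, with Mir21c. For Mir150, Mir155 and Mir223 it was 12 or 13 bases, as it was for Mir142 with the miRNA gene that overlaps it left out. Of the 7 genes, only Mir146 and Mir146b thus share 20 bases or more with a miRNA gene elsewhere. Other sites in the genome were not compared.

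Mir142 overlaps another miRNA gene on the opposite strand. Mir142b covers it from 87756841 to 87756955 on the minus strand of chromosome 11 and had no counts of its own in either library. In the column that ignores strand, reads on both genes are ambiguous, and Mir142 is listed at 0 there. The only other miRNA gene within 10 kb of any of the 7 was Mir5121, which lies 5096 bases from Mir150 on the opposite strand and had 52 and 112 counts. Of the 7 genes, 3 lie on chromosome 11, which holds 6.22% of all 2202 miRNA genes. Mir21a and Mir142 are 1173 kb apart there.

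How far did the genes differ between the libraries? A 2-sided exact binomial test of the 2 counts of each gene, with Benjamini-Hochberg adjustment over the 472 genes whose counts averaged 10 or more, called 5 of the 7. The test compares these libraries, treats reads as independent molecules and leaves out the spread between samples. Of all 472 genes it called 59.7%, so 5 of 7 is near the background. Higher in replicate 1 were 3 of the 7, where the share over all genes was 20.3%, and higher in replicate 2 were 2, where it was 39.4%. TMM scaling (trimmed mean of M-values) adds 0.17 to the log2 ratio of replicate 1 over replicate 2 before a pseudocount, and less to that of scarce genes with one. The test then called all 7, 5 higher in replicate 1 and 2 in replicate 2. All genes then split into 137 higher in replicate 1 and 141 in replicate 2, against 96 and 186 before.

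Higher in replicate 2 were Mir21a and Mir146. Mir21a was 2.00-fold higher there (exact 95% interval 1.92 to 2.08, adjusted p = 2.63e-290 in the exact binomial test), a log2 ratio of replicate 1 over replicate 2 of -0.998. Its log2 ratio was farther from 0 than those of 87.1% of the 472 genes. Mir146 was 1.44-fold higher in replicate 2 (1.37 to 1.51, adjusted p = 3.51e-45 in the same exact test), a log2 ratio of -0.52.

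Higher in replicate 1 were Mir146b, Mir142 and Mir150. Mir146b was 2.80-fold higher there (exact 95% interval 1.61 to 5.06, adjusted p = 0.000222 in the exact binomial test), the opposite direction from its relative Mir146. Mir142 was 2.10-fold higher in replicate 1 (1.70 to 2.62, adjusted p = 5.26e-12 in the exact test). Mir150 was 1.22-fold higher there (1.18 to 1.27, adjusted p = 1.75e-27 in the exact test), with a log2 ratio of 0.29 that was farther from 0 than those of 39.2% of genes. Mir223 and Mir155 missed the threshold, at 1.83-fold (1.03 to 3.32, adjusted p = 0.0505 in the exact test) and 1.26-fold (1.01 to 1.56, adjusted p = 0.0604). Under TMM scaling their adjusted p-values in the exact test were 0.0181 and 0.00262. Mir155 also passed where only the 291 genes averaging 100 counts or more were tested, of which 83.2% were called.

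Mir142 and Mir146b were the 2 genes of the 7 that lay at least 2-fold apart, where 15.9% of the 472 genes did, and Mir21a stood just under that limit. The median log2 ratio of the 7 genes was 0.32, and that of all 472 was -0.16. The median distance from 0 was 0.72 for the 7 and 0.36 for all. The common biological coefficient of variation between the libraries, estimated with edgeR over 472 genes, was 0.320. The SDs of the 7 genes ran from 14.3% of the mean for Mir150 to 67.0% for Mir146b.

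**Figure D3:**
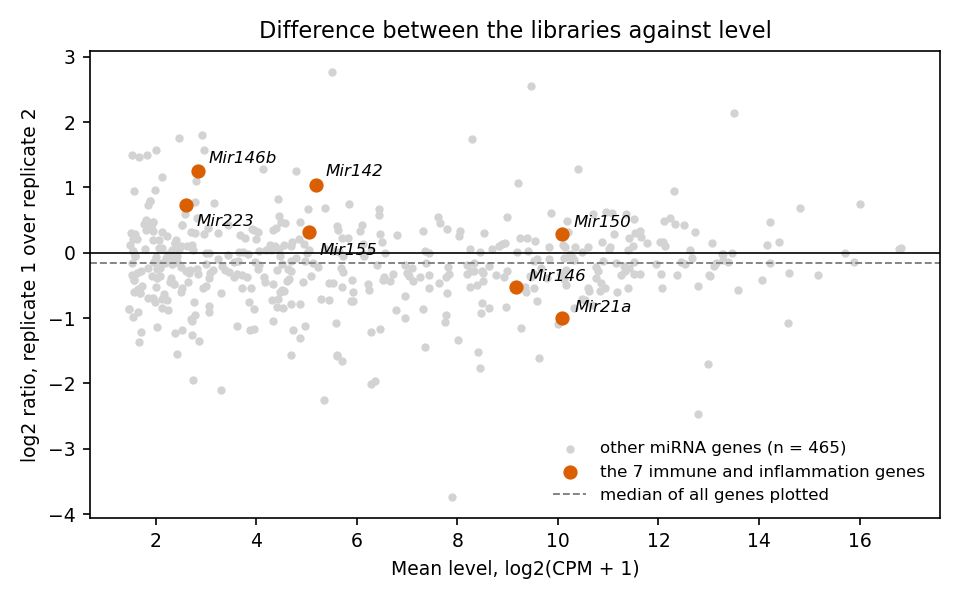
log2 ratio of replicate 1 over replicate 2 against mean level, log2(CPM + 1), for the 472 miRNA genes whose counts averaged 10 or more, with the 7 immune and inflammation genes in orange. Mir21a and Mir146 lie below 0 and the other 5 above it, while the dashed median of all genes lies at -0.16.

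**Figure D4:**
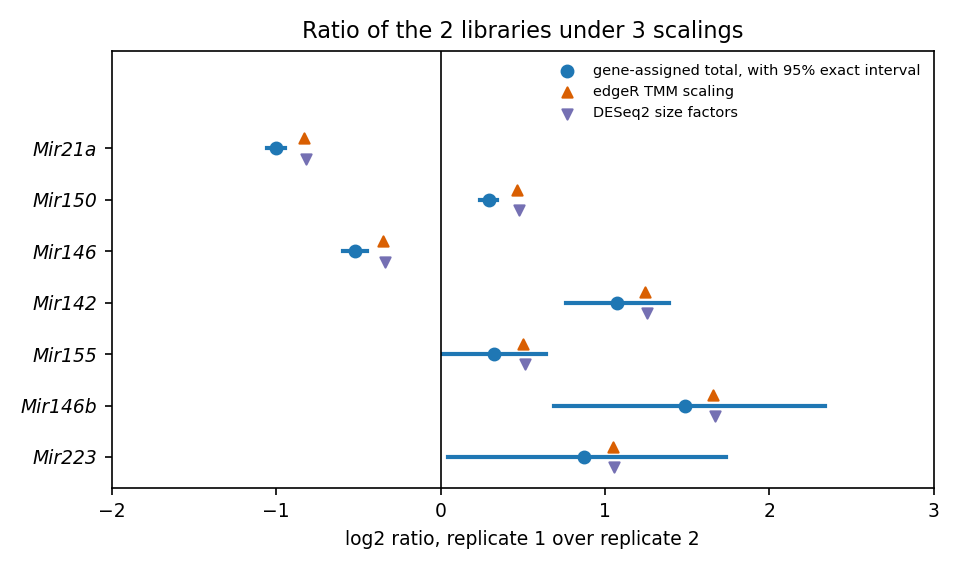
log2 ratio of replicate 1 over replicate 2 for each gene without a pseudocount, scaled to the gene-assigned total (circles, bars are exact 95% intervals for counting error), by TMM (upward triangles) or by DESeq2 size factors (downward triangles). No gene crosses 0 under the other scalings, and the bars of Mir146b and Mir223, the genes with the fewest counts, are the widest.

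For each of the 7, the gene with the most similar pattern was found as the one with the smallest Euclidean distance in log2(CPM + 1) over the 2 libraries. It was Mir195a for Mir21a (654 and 1396 CPM in replicates 1 and 2), Mir17 for Mir150 (1138 and 1049 CPM) and Mir326 for Mir146 (533 and 770 CPM). For the scarcer genes it was Mir677 for Mir142 (39.0 and 24.2 CPM), Mir103-2 for Mir155 (31.4 and 28.6 CPM), Mir547 for Mir146b (8.49 and 3.41 CPM) and Mir1934 for Mir223 (6.17 and 3.75 CPM). With 2 libraries such a match describes a level and a single ratio.

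Other miRNAs linked to blood cells or inflammation, many of which are also expressed outside immune cells, had higher median levels, at 215 CPM for 14 genes of blood cells and 498 CPM for 17 genes linked to macrophages or inflammation, against 35.2 CPM for the 7. Of the 14 blood-cell genes in the tables, 12 were detected, with a share of 0.811% ± 0.0952 (SD, n = 2) of gene-assigned counts. By mean of the libraries their highest were Mir342 (5154 and 3668 CPM in replicates 1 and 2), Mir17 (1138 and 1049 CPM) and Mir92-1 (717 and 614 CPM), although Mir326 at 770 CPM exceeded Mir92-1 in replicate 2. The test called 5 of the 12 higher in replicate 1 and 5 in replicate 2. Over all genes 59.7% were called, and 83.2% of those averaging 100 counts or more, which 10 of these 12 had in both libraries. Their median log2 ratio was 0.06. Of the 17 genes linked to macrophages or inflammation, 14 were detected, with a share of 7.61% ± 0.105. By mean they were led by Mirlet7e (22228 and 27501 CPM), the activity-regulated Mir132 (14669 and 19562 CPM) and Mir99b (19048 and 4319 CPM), which in replicate 2 lay below Mir125a (9380 CPM) and Mir221 (6652 CPM). The test called 5 of the 14 higher in replicate 1 and 8 in replicate 2, where the shares over all genes were 20.3% and 39.4% and 83.2% of genes averaging 100 counts or more were called in either direction. Their median log2 ratio was -0.10. Mir511, which lies in the macrophage mannose receptor gene in mouse, had 10 and 4 counts, and Mir147, induced by Toll-like receptors in macrophages, had 7 and 9 counts.

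Red blood cell miRNAs, which mark blood in the tissue, were also scarce. All 3 in the tables were detected, Mir486 at 20.4 and 23.2 CPM, Mir451a at 17.4 and 26.2 CPM and Mir144 at 4.05 and 7.49 CPM in replicates 1 and 2. Their sum was 41.9 CPM in replicate 1 and 56.9 CPM in replicate 2. Mir451a and Mir144 were called higher in replicate 2, as Mir21a and Mir146 were, while Mir142, Mir146b and Mir150 were called higher in replicate 1. Mir486 was not called, and 39.4% of all 472 genes tested were called higher in replicate 2. The part of blood left in the vessels in these levels was not tested.

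The highest markers of oligodendrocytes, vessels and neurons stood far above Mir142, Mir155 and Mir223. Mir150 and Mir146, with means of 1075 and 572 CPM, also lay below those markers. By mean they lay above the vessel gene Mir145a and the counts of the Mir124a copies, which lack reads aligned to several places. The oligodendrocyte miRNAs Mir219a-2 and Mir338 had 4230 ± 677 and 1728 ± 326 CPM (SD, n = 2). Of 4 vessel genes 3 were detected, the endothelial Mir126a with 5574 ± 389 CPM and the vessel wall genes Mir143 with 3167 ± 518 and Mir145a with 312 ± 238 CPM. Mir143 and Mir145a were called higher in replicate 1, as Mir142, Mir146b and Mir150 were, and Mir126a in replicate 2, as Mir21a and Mir146 were. Over all genes 20.3% were called higher in replicate 1 and 39.4% in replicate 2. Of genes averaging 100 counts or more, 83.2% were called in either direction. Of 7 neuronal genes 5 were detected, the highest being Mir128-1 (6294 ± 123 CPM) with Mir138-1 (5856 ± 1194 CPM) and Mir138-2 (2605 ± 749 CPM) after it. Mir124a-2 had 0 and 1 counts and Mir124a-3 had 2 and 9. Reads that fit several Mir124a copies are absent from these values, and their number is not given. The values therefore do not give the level of the Mir124a product, and the part of such reads was not tested. The levels and sums of the other marker lists leave out such reads too, so those of genes with close copies are uncertain. In the counts that remain, the neuronal genes summed to 17816 CPM in replicate 1 and 14795 CPM in replicate 2. The oligodendrocyte genes summed to 5248 and 6667 CPM. The libraries thus also differed in these lists, and the part of tissue make-up in the differences of the 7 genes was not tested.

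**Figure D5:**
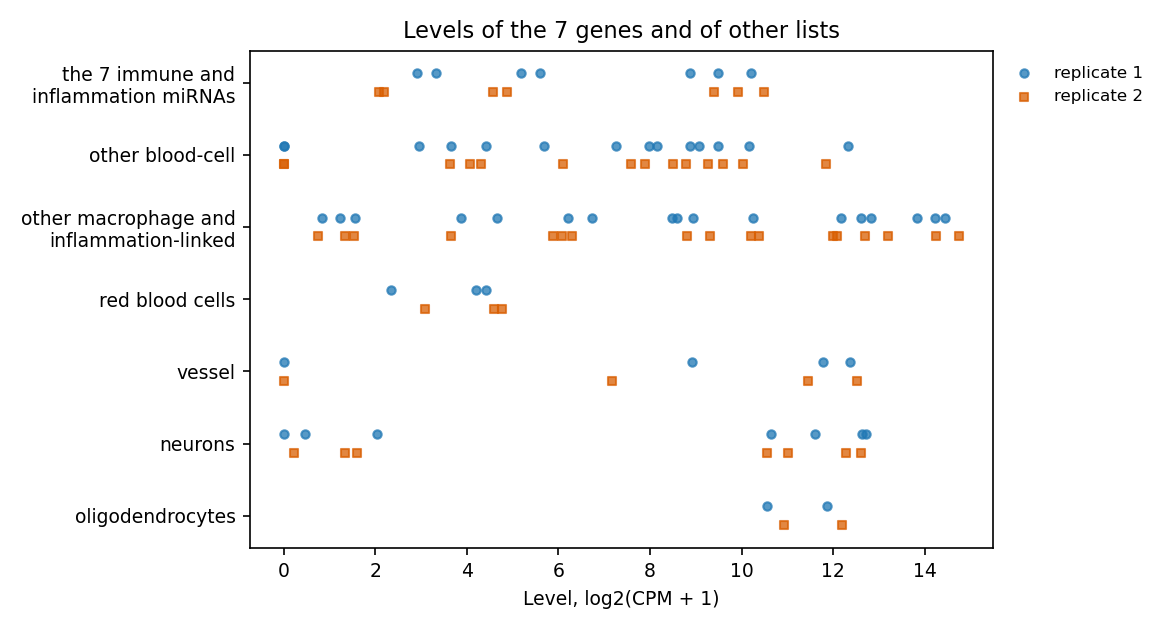
Level, log2(CPM + 1), of every gene of the set and of 6 other lists in replicate 1 (circles) and replicate 2 (squares); genes at 0 have no counts. The 4 scarcer genes of the set span 3.24 to 47.6 CPM, around the red blood cell miRNAs at 4.05 to 26.2 CPM and below both oligodendrocyte miRNAs.

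Of 13900596 reads in replicate 1, 5183641 were gene-assigned, and of 15995194 in replicate 2, 5871233 were. Reads aligned to several places were 43.6% and 43.2% of reads. Without molecular identifiers, reads are not independent molecules, and intervals cover counting error only.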

How the data were processed

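The deposited tables hold raw counts of reads for each miRNA gene, made with mm10 and GENCODE M21 per the text files deposited with them. For the aligner and counter, nothing is given in the sources used here. A table has separate columns of deposited counts, for either strand, for the gene's own and for the opposite one, and the own-strand column was taken. The 4 rows that name no gene were left out of the library sizes: unmapped reads (14.1% and 15.5% of reads in replicates 1 and 2), reads aligned to several places (43.6% and 43.2%), reads on no feature (5.04% and 4.59%), and ambiguous reads (0 in this column).

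CPM values are counts divided by the gene-assigned total of the library, and log2 ratios carry a pseudocount of 1 CPM. A quasi-likelihood test had nothing to compare, as there is 1 group. The libraries were compared with 2-sided exact binomial tests (scipy 1.17.1), Benjamini-Hochberg adjusted at 0.05. The test was checked on simulated data with counting error only, so not under spread between samples. edgeR 4.0.16 gave TMM factors and the common dispersion, and DESeq2 1.42.0 size factors. Intervals are exact Clopper-Pearson at 95%, and floors are 3 counts. Host genes, overlaps and precursor stretches come from GENCODE M21, mature sequences from RefSeq (GRCm38.p6). Named genes are the 7 genes, their relatives and neighbours within 10 kb, the nearest gene by level, and the highest 3 of each other list. Mir511, Mir147 and the Mir124a copies were named after their values were seen. The genes and lists were chosen with earlier results of these data known. Mir424 and Mir486b are not analysed here.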

Additional observations from a re-analysis of the deposited data

Results flagged for a closer look

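Mir142b covers Mir142 on the opposite strand. In the column for the other strand it had 247 counts in replicate 1 and 133 in replicate 2. These lie above the 3 counts that a count of 0 allows, but equal the counts of Mir142 on its own strand. Reads of Mir142 fall on the other strand of Mir142b, so they are no separate signal of Mir142b. The other-strand column was used for no level in the report. The 7 genes themselves had 0 counts there except Mir150, with 1 count in replicate 2.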

How the results depend on the processing

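No paired analysis was possible because the 2 libraries form 1 group. Of 84 alternative values, 70 were labelled unchanged, and none changed direction. Levels and shares counted as unchanged within the SD of the 2 libraries, and log2 ratios on the same side of the adjusted p threshold. Numbers of genes or pairs did so near the main value, so 5 and 7 of the 7 genes called counted alike. Levels and shares of a single library lie within that SD by construction, and another pseudocount left the p-value as it was. Those values therefore could not have changed label. With reads aligned to several places added to the total, the mean levels were 495 CPM for Mir21a and also 495 CPM for Mir150, 263 for Mir146, 16.2 for Mir142, 14.7 for Mir155 and 2.33 for Mir223, and the summed share was 0.129%, by construction of a larger total. In the column that ignores strand, Mir142 was at 0 CPM. The log2 ratios of Mir155 and Mir223 passed the exact binomial test under TMM scaling (0.48 and 0.86) and under DESeq2 size factors (0.50 and 0.87), and the cause was not tested. With a mean count of at least 100 asked for, Mir155 passed too and fewer genes were tested, 291 against 472. With a minimum of 100 counts, 1 of 3 red blood cell genes was detected and 5 of the 7 immune and inflammation genes. In a single library, 4 to 5 of the 6 neighbouring pairs held the order of the means, against 3 in both. Leaving out a library put the mean levels at 718 to 1436 CPM for Mir21a and 22.7 to 47.6 CPM for Mir142. Depth limits Mir146b and Mir223 most, at 19 to 47 counts a library.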
